A study of Mus musculus with 6 samples.

Results

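Fetal liver KSL cells that lacked Trim28 were compared with wild-type fetal liver KSL cells on 1 array each, which makes 2 of the 6 arrays in the study. KSL cells are positive for c-Kit and Sca-1 and negative for lineage markers, a sorted fraction in which hematopoietic stem cells (HSCs) and early progenitors are enriched. The other 4 arrays, from adult bone marrow KSL cells, are used here for comparison and share no sample with the fetal liver arrays. The adult samples carried CreERT, and not the Tie2-Cre of the fetal liver samples. All samples have the C57BL6 genetic background. Both fetal liver samples carried Tie2-Cre. The wild type (WT) was Tif1b w/w, and in the knockout (KO) both Tif1b alleles were floxed (Tif1b f/f). Tif1b is the older name of Trim28. The WT array is therefore also a control for the Cre transgene, and it carries no floxed allele. The Tie2 promoter is active in endothelial cells and in blood cells derived from them, so deletion can begin before the liver is colonised by stem cells and is not limited to KSL cells. The age of the fetuses, their number and any pooling are not given in the labels used here. For each array 10 ng of total RNA was amplified and labelled with Cy3.

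TIF1b, the product of Trim28, is a corepressor that zinc finger proteins bring to DNA. It gathers HP1 proteins and enzymes that methylate histone H3, and it is known for silencing retroelements, imprinted regions and genes foreign to the cell's lineage. The fetal liver is the main site of blood formation before birth, and its stem cells divide far more often than those of adult marrow.

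Levels are given as the log2 signal of a probe relative to the 75th percentile of its array, and differences are KO minus WT on that log2 scale. A gene was tested if its probe was well above background, by the scanner's flag, on at least 1 of the 2 arrays. With 1 array per genotype no difference has a replicate check, so no p-value is given and the spread between animals is unknown. The only errors that can be measured are those of the array. Probes spotted at least 5 times differed between their spots by a median SD of 0.069 (WT, 245 probes) and 0.065 (KO, 254 probes), and separate probes of 1 gene differed in KO minus WT by an SD of 0.23 (2837 genes). For a value not above background on 1 array only a bound can be given, written as at least N-fold.

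Trim28, the targeted gene, was at 5.97 in WT and at 1.68 in KO. The difference of -4.30 is 19.6-fold, and the KO probe was still above background. Where the probe lies relative to the floxed part is not known from the files. The genes of the HP1 proteins that TIF1b binds differed by less than the spread between probes. Cbx1 was at -0.72 in WT and -0.55 in KO, Cbx3 at 5.96 and 5.98, and Cbx5 at 3.14 and 3.11. Of 26 tested genes for TIF1b, HP1 and partner silencing factors, Trim28 was at least 2-fold lower and 1 was at least 2-fold higher. That gene was Trim24, which encodes the related TIF1a, at 1.52 in WT and 3.24 in KO. Its second probe gave a difference of 1.69. Trim33, for the third family member TIF1g, was at -0.04 and 0.51.

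Kit, a marker of the gate, and the stem and progenitor cell genes Cd34 and Flt3 read alike on both arrays. Kit was at 4.50 in WT and 4.30 in KO, Cd34 at 7.91 and 7.87, and Flt3 at 4.37 and 4.33. Ly6a, which encodes Sca-1, was low on both arrays (0.31 and 0.77), where the same probe read 4.75 and 6.04 in the second adult pair. Mecom, a stem cell transcription factor, was not above background on either array. Of the lineage genes, Cd8a was below background on both arrays. Itgam, which encodes CD11b, was at 4.71 and 5.19. Genes of the Y chromosome were lower in KO, with Eif2s3y at 0.52 in WT and -1.60 in KO, and Xist, which is expressed from the inactive X, was at -0.95 and 0.33. A total of 3 of the 4 tested genes of the Y chromosome were at least 4-fold lower. The sexes of the fetuses are not given in the labels used here, and the part of the sex genes in other differences was not tested.

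Of 12731 genes tested, 527 (4.14%) were at least 2-fold higher in KO and 445 (3.5%) were at least 2-fold lower. At 4-fold these were 134 (1.05%) and 106 (0.833%). With normexp background correction 236 genes were at least 2-fold higher and 182 lower. The middle of the distribution was narrow, with a median difference of -0.07 and quartiles of -0.29 and 0.19. Levels on the 2 arrays correlated across the 11725 genes above background on both, with r = 0.984. When the arrays were scaled on spike-in RNA in place of the 75th percentile, 440 genes were at least 2-fold higher and 556 lower, and the median of all genes moved to -0.19. The 8 spike-in probes above background differed by 0.08 to 0.30.

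Of the genes past 2-fold, 577 were above background on both arrays, 199 in KO only and 196 in WT only. Single bright spots also occurred among control probes that were otherwise dark, where 50 of 2688 spots in WT (1.86%) and 38 of 2688 in KO (1.41%) were flagged as above background, at levels up to 0.02 and 0.13. A total of 75 of the 199 genes, and 77 of the 196, were below background on all 4 adult arrays, against 16 of the 577. The part of such spots in these counts was not tested. Without the genes that were above background on 1 fetal liver array and on no adult array, a choice made after seeing the data, 452 genes were higher and 368 lower. In these bulk samples fewer cells of a type and less RNA per cell cannot be told apart.

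**Figure D1:**
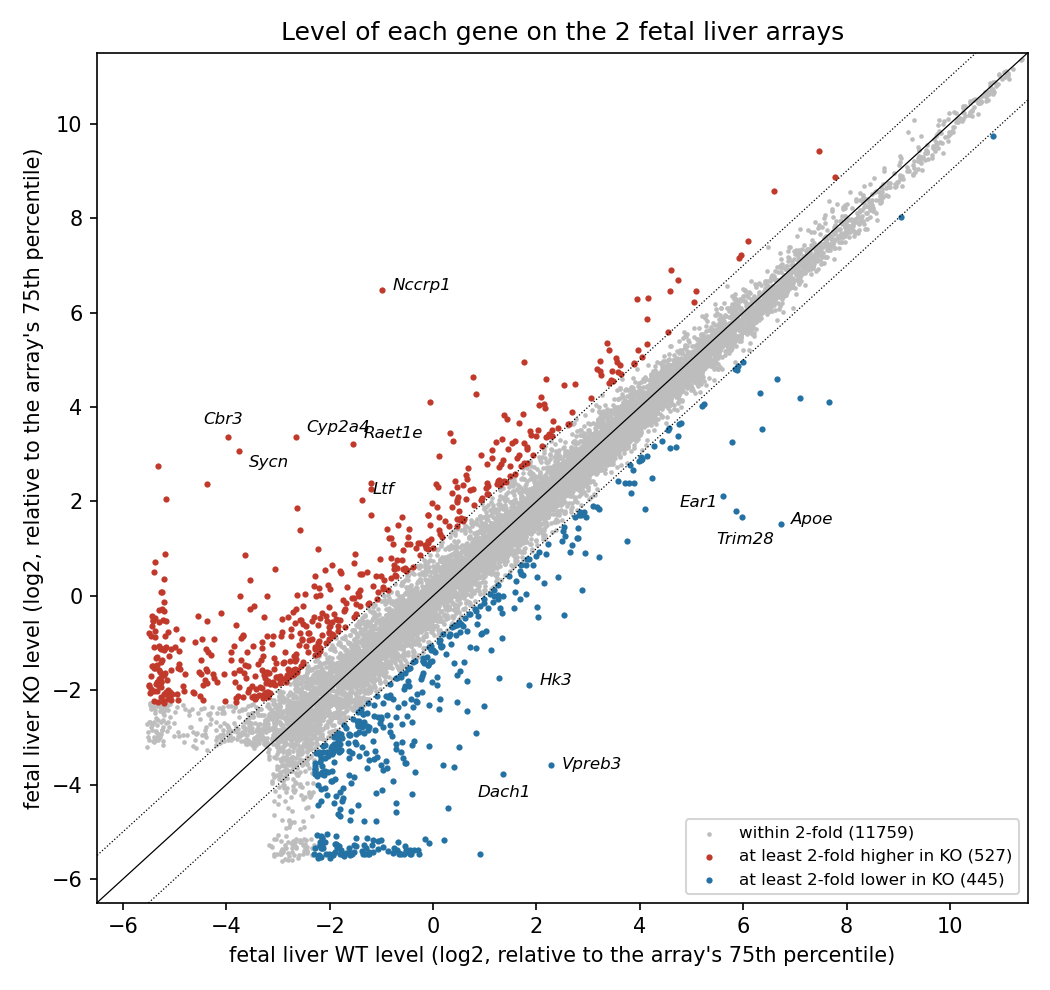
Level of each of the 12731 tested genes on the fetal liver WT array (x axis) and KO array (y axis), both log2 relative to the array's 75th percentile. Red points are the 527 genes at least 2-fold higher in KO, blue points the 445 at least 2-fold lower, grey points the rest, and dotted lines mark 2-fold. The points at the lower and left edges are values below background, called from their bounds.

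The largest differences upward belonged to genes that were near or below background in WT and bright in KO, and several of them encode proteins of liver, gut, bladder or pancreas. Nccrp1, whose product belongs to a family of F-box-associated, sugar-binding proteins, was at -0.99 in WT and 6.47 in KO, a 177-fold difference. Cbr3, a carbonyl reductase, was below background in WT and at 3.37 in KO, higher by at least 6.64. Sycn, whose product syncollin sits on the secretory granules of pancreatic acinar cells, was below background in WT and at 3.08 in KO, at least 81.4-fold higher. Ppp1r3g, a subunit that steers a phosphatase to glycogen, was at 2.36 in KO and at least 49.6-fold higher. Upk1b, a uroplakin of the bladder lining, was at 2.05 in KO and at least 40.0-fold higher. Epcam, an adhesion molecule of epithelia, was at 0.88 in KO and at least 17.7-fold higher. These 5 genes below background in WT were above it on 2 to 4 of the adult arrays.

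Cytochrome P450 genes were among them. Cyp2a4, a steroid hydroxylase of liver, was at -2.66 in WT and 3.37 in KO, and its second probe was below background in WT and at 5.52 in KO, higher by at least 8.79. Cyp2b10, the classic drug-inducible P450 of mouse liver, was below background in WT and at 0.71 in KO, at least 15.8-fold higher. Cyp2a4 and Cyp2b10 belong to families of close paralogs whose RNA a probe may not separate. In the list of metabolic and detoxification genes of solid tissues, 6 of 23 tested genes were at least 2-fold higher and 3 lower. The median was 0.55, or 0.43 at the bounds, against -0.07 for all genes. It was 0.16 with normexp background correction, 0.14 over genes above background on both arrays, and below 0 (-0.058) with no filter on dim probes. Fbp2, a fructose bisphosphatase, was at least 13.7-fold higher and Ak7, an adenylate kinase, at least 5.59-fold higher. At the other end Gda, a guanine deaminase, was at 3.22 in WT and 0.83 in KO.

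The promoters of 4 of these genes show what lies upstream of genes that read near background in WT and bright in KO. They are RefSeq promoters of build GRCm38.p6, 300 bases long and ending 50 bases after the start of the gene, with CG dinucleotides in capitals.
Sycn (chr7:28540635-28540934, plus strand): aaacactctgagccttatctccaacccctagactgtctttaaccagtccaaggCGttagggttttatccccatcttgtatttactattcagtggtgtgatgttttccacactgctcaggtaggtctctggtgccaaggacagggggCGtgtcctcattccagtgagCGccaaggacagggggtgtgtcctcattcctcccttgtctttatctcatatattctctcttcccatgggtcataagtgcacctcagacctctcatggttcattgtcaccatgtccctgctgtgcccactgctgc
Ppp1r3g (chr13:35967656-35967955, plus strand): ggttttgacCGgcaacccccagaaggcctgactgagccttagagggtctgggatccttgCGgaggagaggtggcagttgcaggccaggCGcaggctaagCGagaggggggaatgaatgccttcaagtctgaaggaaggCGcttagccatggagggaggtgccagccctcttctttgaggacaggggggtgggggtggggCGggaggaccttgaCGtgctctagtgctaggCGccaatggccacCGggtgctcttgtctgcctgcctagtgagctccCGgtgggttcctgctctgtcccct
Cyp2b10 (chr7:25897408-25897707, plus strand): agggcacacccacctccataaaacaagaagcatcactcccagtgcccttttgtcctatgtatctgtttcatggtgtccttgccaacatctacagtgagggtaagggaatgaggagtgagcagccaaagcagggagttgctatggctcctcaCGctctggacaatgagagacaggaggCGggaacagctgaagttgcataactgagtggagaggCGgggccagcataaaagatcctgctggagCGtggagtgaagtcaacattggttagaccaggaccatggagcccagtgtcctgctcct
Cyp2a4 (chr7:26306942-26307241, plus strand): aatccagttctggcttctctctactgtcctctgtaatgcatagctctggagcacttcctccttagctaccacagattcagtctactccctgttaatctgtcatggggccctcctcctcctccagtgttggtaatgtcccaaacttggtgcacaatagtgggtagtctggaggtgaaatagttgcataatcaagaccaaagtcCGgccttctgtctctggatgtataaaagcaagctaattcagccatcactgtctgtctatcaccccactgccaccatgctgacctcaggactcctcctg
Sycn has 3 CG dinucleotides in this window, Ppp1r3g 10, Cyp2b10 4 and Cyp2a4 1. The letters TATAAA, read on both strands, are in the Cyp2a4 window and not in the other 3. GGGCGG, the letters of a GC box, is in the Ppp1r3g window alone, while the Sycn window alone holds a GATA motif. That motif was searched as AGATAA on both strands, and so was the GC box. Over all 32851 promoters of 300 bases, 13.6% hold TATAAA, 35.7% hold the GC box and 11.2% hold the GATA motif, and the median is 7 CG dinucleotides. A promoter was found for 99 of the 134 genes at least 4-fold higher in KO, for 84 of the 106 genes at least 4-fold lower and for 10223 of all 12731 tested genes. The median count of CG dinucleotides was 11 in the higher genes, 7 in the lower genes and 19 in all tested genes.

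Other large differences upward, measured on both arrays, were in genes of varied function. Raet1e, a stress-induced ligand of the NK receptor NKG2D, was at -1.55 in WT and 3.21 in KO. Folr1, a folate receptor, was at -2.63 and 1.85. Raver2, an RNA-binding protein, was at -2.57 and 1.39. Bmp7, a growth factor of the TGF-beta superfamily, was at -3.06 and 0.58, and Il1r2, the decoy receptor for interleukin 1, at -1.20 and 2.39. Dnah8, an axonemal dynein, was at 0.76 and 4.63, and its other probes were higher by 3.51 and by at least 1.79. Pnp2, a purine nucleoside phosphorylase, was at 0.84 and 4.28; its near-identical neighbour Pnp may share its signal. Fxyd4, a regulator of the sodium pump, had a bound of 64.8-fold, but rests on 1 probe that was below background on all 4 adult arrays.

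The germline list held 32 genes with a probe, of which 10 were above background on at least 1 array and so tested. Of these 10 genes, 3 were at least 2-fold higher and 2 lower, with a median of -0.03. Of the same 10, 2 were above background on 1 array only. Rpl39l, a ribosomal protein paralog of testis, was at -0.05 in WT and 4.10 in KO. Ddx4, the germ cell helicase, was at 0.47 and 2.30. Tdrd5, a tudor protein of germ cells that the list does not hold, was at -1.20 and 2.26, and its second probe differed by 3.52. On the lower side Tdrkh, also a tudor protein, was at -0.31 and -2.24. Rhox5, a homeobox gene of testis and placenta, was at -0.67 and -2.36.

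Epithelial genes included Upk1b and Epcam and a few others. In all 5 of 16 tested genes were at least 2-fold higher and none lower, with a median of 0.61. The median was 0.29 with normexp, 0.36 over genes above background on both arrays and 0.067 with no filter on dim probes. Perp, a desmosome protein and p53 target, was at 4.17 in WT and 6.30 in KO. Dsp, the desmoplakin gene, was below background in WT and at -1.96 in KO, at least 2.49-fold higher. The keratin gene Krt18 was at 4.64 and 4.36. Neural genes gave 1 higher and 6 lower of 18, with Gria3, a glutamate receptor, at -0.07 and -2.32. Muscle genes gave 3 higher and 2 lower of 12. Their extremes, Nexn and Myh6, were each bright on 1 fetal liver array, and Myh6 was below background on all 4 adult arrays.

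**Figure D2:**
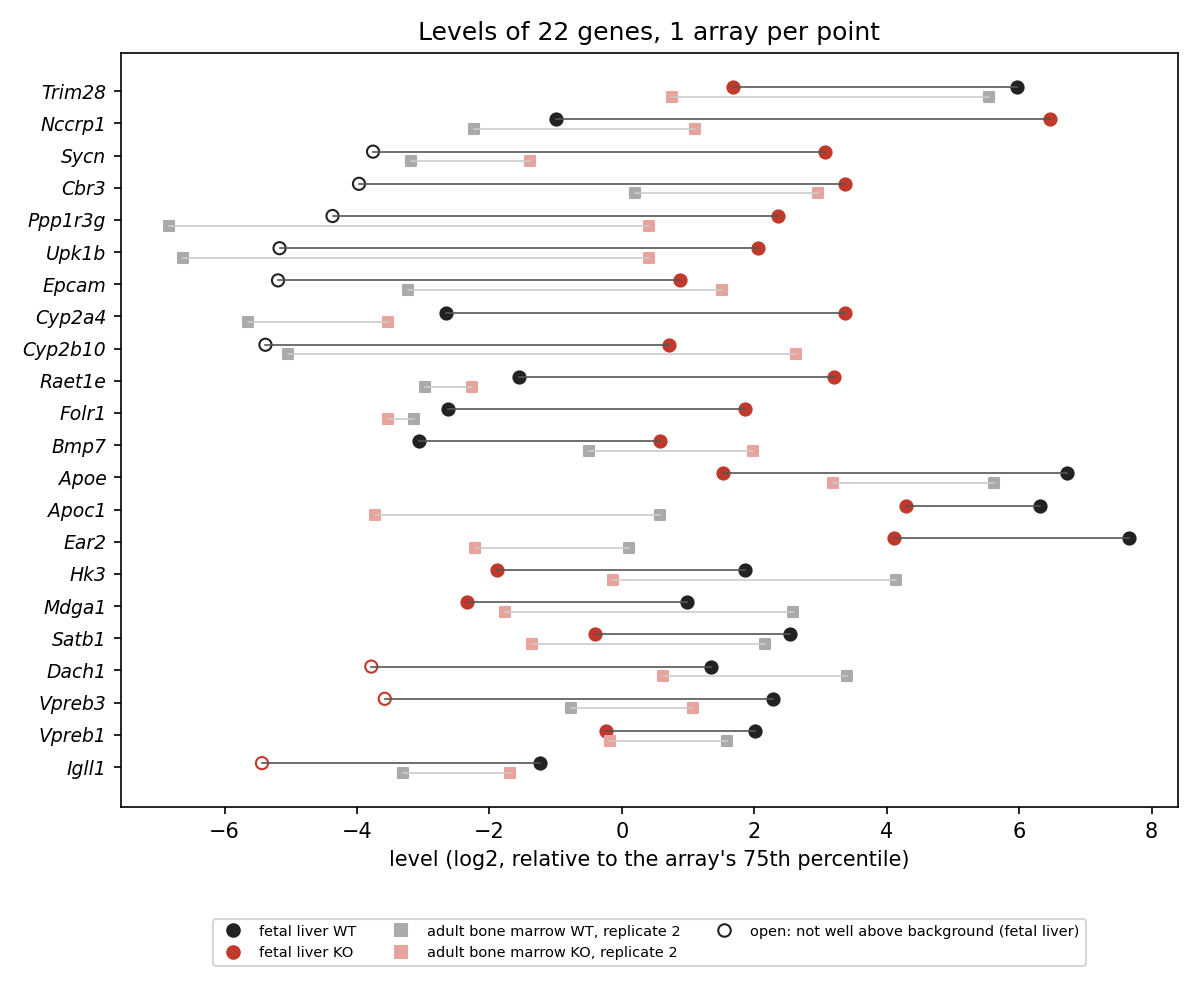
Levels of 22 genes (rows) on the fetal liver WT and KO arrays (circles, open where not well above background) and on the second adult bone marrow pair (squares), log2 relative to each array's 75th percentile. Each point is 1 array. Nccrp1 and Sycn lie at the right in fetal liver KO, and Trim28, Apoe and Ear2 lie to the left of their WT points.

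Among genes lower in KO, Apoe differed the most of those measured on both arrays. Apoe, the lipoprotein of macrophages and liver, was at 6.73 in WT and 1.53 in KO, a 36.7-fold difference. Apoc1, its neighbour on chromosome 7, was at 6.32 and 4.29. Sycn and Nccrp1 are also neighbours on chromosome 7, and both were higher. Trim28, Cyp2a4 and Cyp2b10 lie on the same chromosome, where 17 of 1034 tested genes (1.64%) were at least 4-fold higher and 6 (0.58%) at least 4-fold lower, against 1.05% and 0.833% of all genes.

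Eosinophil-associated ribonuclease genes stood together. Ear2 was at 7.67 in WT and 4.11 in KO, Ear1 at 5.86 and 1.80, and Ear10 at 5.62 and 2.12. These 3 genes are consecutive on chromosome 14. Ear6 was at 6.36 and 3.54, and Rnase2a at 7.10 and 4.19. The sequences of this family are nearly identical, so the probes may read 1 or several of these genes, and their differences are not independent. Of the other eosinophil granule genes, Prg2, for major basic protein, was at 7.78 and 7.69. In the list of mast cell, basophil and eosinophil genes, 6 of 21 were at least 2-fold lower and none higher, and 4 of the 6 were Ear genes.

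Further genes lower in KO and measured on both arrays were Hk3, a myeloid hexokinase (1.86 in WT and -1.89 in KO), and Mdga1, an adhesion molecule (0.99 and -2.34). Arl5c, an ARF-like GTPase, was at 0.83 and -2.91, and Plbd1, a phospholipase-like protein of granulocytes, at 0.66 and -2.45. Satb1, a chromatin organiser that favours lymphoid development, was at 2.54 and -0.41. Dach1, a transcription corepressor of myeloid and stem cell progenitors, was at 1.35 in WT and below background in KO, at least 25.2-fold lower, and its second probe was above background in WT only, at -1.66. Ifi202b, an interferon-inducible DNA sensor, was at 0.91 in WT and below background in KO, at least 18.6-fold lower, with a second probe at 0.57 in WT and below background in KO. Ank2 and Klb also read above background in WT only, at 0.51 and 0.29. Klb was below background on all 4 adult arrays.

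Genes of early B cells were lower in KO. Of 17 tested B lymphoid and recombination genes, 10 were at least 2-fold lower and none higher, and the median was -2.25, or -1.18 with values below background at their bounds. A total of 8 of the 17 were above background on 1 array only, and over genes with a probe above background on both arrays the median was -0.19. It was -0.62 with normexp, another background correction. Vpreb3, of the pre-B cell receptor complex, was at 2.28 in WT and below background in KO, at least 48.1-fold lower. Vpreb1, which encodes a surrogate light chain component, was at 2.01 and -0.25. Igll1, its partner and the neighbouring gene on chromosome 16, was above background in WT only. Blnk, an adaptor of the B cell receptor, was at 1.28 and -1.73. Rag1, of the recombinase, and Pou2af1, a B cell coactivator, were above background in WT only, at least 7.25-fold and 7.73-fold lower. Cd79b, a signalling chain of the B cell receptor, was at 4.97 and 4.99, and Cd22 at -0.55 and -0.40.

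Pax5 and Cd79a were below background on both arrays, and Ebf1 was above it in WT only. The summed linear level of these 3 markers and Vpreb3 was 5.21 in WT and 0.21 in KO, in units of the array's 75th percentile, and in WT most of it was Vpreb3. T, NK and innate lymphoid genes gave 2 higher and 2 lower of 23, against 4.14% and 3.5% of all genes, with a median of -0.07. Il7r, the interleukin 7 receptor of lymphoid progenitors, was at 0.32 and -0.85. Thy1, also a stem cell and T cell surface protein, was at -0.47 and 1.42. Klrd1, an NK receptor chain, was above background in WT only and at least 5.31-fold lower. Notch3 was at -0.71 and 0.58, and Lck at 3.23 and 3.27.

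Genes of hepatocytes, the other main cell of the fetal liver, were also lower in KO. Of 18 tested hepatocyte genes, 10 were at least 2-fold lower and none higher, with a median of -1.55, or -1.15 at the bounds and -0.48 with normexp background correction. Afp, the fetal serum protein, was at 2.89 in WT and 0.12 in KO, and Alb, for albumin, at -0.42 and -2.19. Apoe and Apoc1 were on this list, and macrophages also express them. Trf, for transferrin, was at 4.93 and 4.62, and Apoa2 at 2.44 and 2.30, while a second, dimmer Apoa2 probe was lower by -1.41. The summed linear level of the 5 hepatocyte markers was 8.66 in WT and 1.46 in KO, with Apoa1 below background on both arrays and Ttr and Fgb above it in WT only. The part of hepatocyte RNA in these differences was not tested. Alb was below background on all 4 adult arrays, and Afp was above it on all 4.

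**Figure D3:**
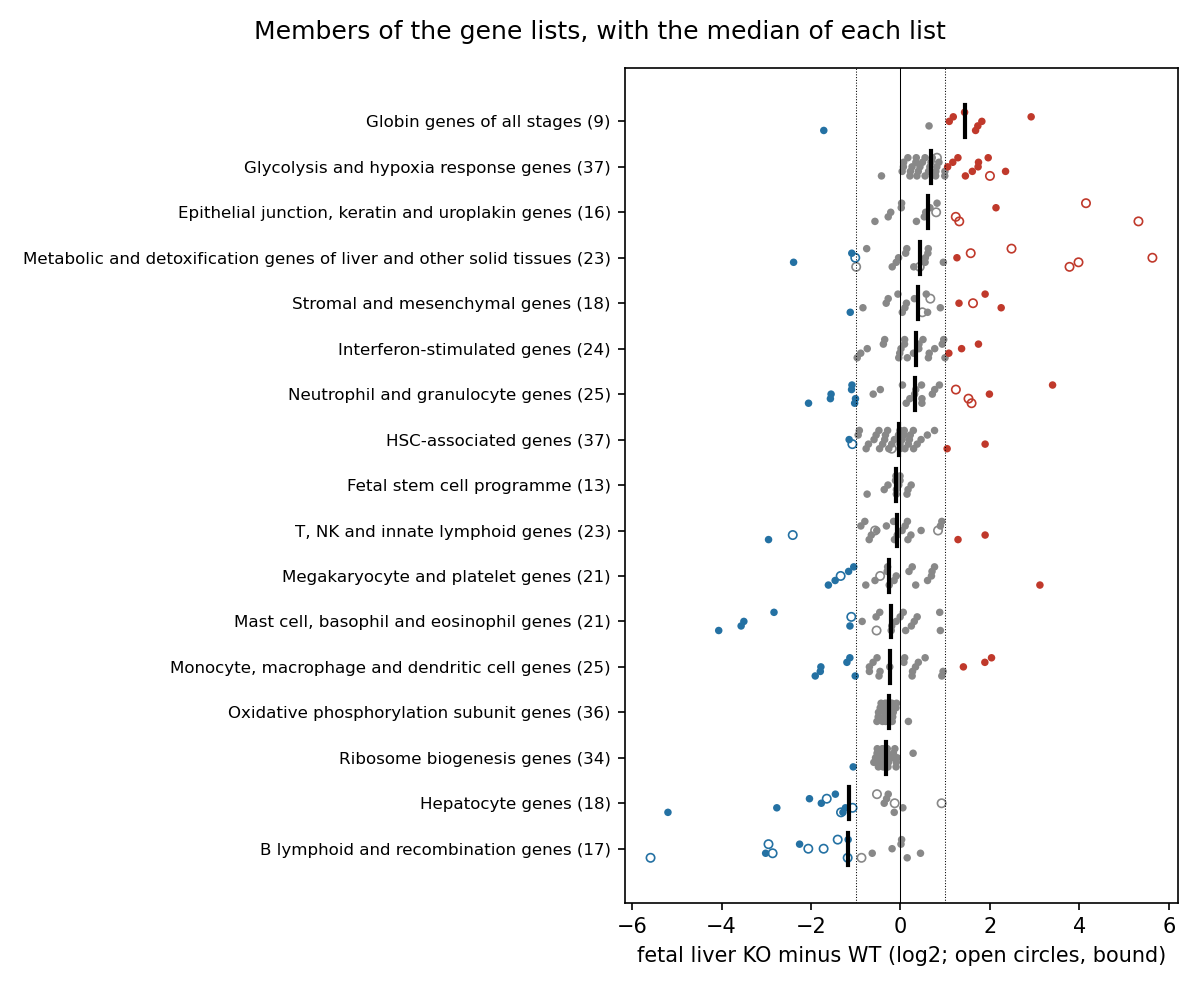
Difference KO minus WT in fetal liver (x axis, log2) of each tested member of 17 gene lists (rows, number of tested genes in brackets). Red points are at least 2-fold higher, blue points at least 2-fold lower, open circles are bounds, and vertical bars give the list median at the bounds. Globin and glycolysis genes lie mostly to the right of 0, and B lymphoid and hepatocyte genes to the left.

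Stromal genes gave 4 higher and 1 lower of 18, with a median of 0.44, or 0.40 at the bounds, 0.21 with normexp and 0.13 over genes above background on both arrays. Col1a1, for type I collagen, was at -3.10 in WT and -0.85 in KO, and Fbln1, for fibulin, at 0.90 and -0.22. Dcn and Pdgfra, which define mesenchymal cells, were below background on both arrays. Endothelial genes gave 3 higher and 1 lower of 22 with a median of -0.09. Stab1, a scavenger receptor of sinusoidal endothelium and macrophages, was at 0.09 and 2.31, and Ramp2, a receptor partner, at 2.81 and 1.45. Cdh5, Stab2 and Lyve1, of liver endothelium, were below background on both arrays. Kdr, for a VEGF receptor, was at 5.15 and 5.29, and Pecam1 at -1.17 and -1.16.

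Myeloid genes differed in both directions. Of 25 tested neutrophil and granulocyte genes, 5 were at least 2-fold higher and 7 lower, with a median of 0.32. Ltf, for lactoferrin of the secondary granules, was at -1.38 in WT and 2.02 in KO. Pglyrp1, which binds bacterial cell walls, was at 3.37 and 5.36. The late granule genes Mmp8 and Ngp were below background in WT and at least 3.01-fold and 2.87-fold higher. Elane, for the primary granule protease elastase, was at 6.65 and 4.59, and Fcnb, a ficolin, at 2.80 and 1.23. Mpo, for myeloperoxidase, was at 10.83 and 10.88.

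Of 25 monocyte, macrophage and dendritic cell genes, 3 were at least 2-fold higher and 6 lower. The lysozyme genes Lyz2 (1.22 in WT and 3.26 in KO) and Lyz1 (4.58 and 6.47) share most of their sequence and were both higher, as was Cd14, a receptor for endotoxin, at -0.29 and 1.11. H2-Eb1, an MHC class II chain, was at 0.72 and -1.08. Zbtb46, a transcription factor of classical dendritic cells, was at -0.84 and -2.75, and Vcam1, an adhesion molecule of liver macrophages and stroma, at 1.02 and -0.76. Csf1r, the receptor for macrophage colony-stimulating factor, was at 6.28 and 6.04. Adgre1, which encodes a surface receptor used as a macrophage marker, was at 1.79 and 2.19. C1qa and Timd4, of resident macrophages, were below background on both arrays.

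Of 21 megakaryocyte and platelet genes 1 was at least 2-fold higher and 5 lower, with a median of -0.25. Pf4, for platelet factor 4, was at 2.69 in WT and 1.07 in KO, Gp1ba, for a von Willebrand factor receptor chain, at -1.43 and -2.89, and Treml1 at 2.87 and 1.71. The higher gene was Thbs1, for thrombospondin, at 0.32 and 3.44. Of the 21 genes 8 lay above 0 and 13 below. The summed linear level of 5 megakaryocyte markers was 16.5 in WT and 16.8 in KO. Itga2b, which encodes CD41, was at 0.30 and 0.99. Of the mast cell markers, Hdc, for the histamine-making enzyme, was at 7.01 and 7.25, Cpa3, for a carboxypeptidase, at 3.64 and 2.78, and Ms4a2, a chain of the IgE receptor, at -2.02 and -2.49. Fcer1a, another chain of that receptor, was above background in WT only.

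Globin genes were higher in KO, and other red cell genes were divided. Of 9 tested globin genes, 7 were at least 2-fold higher and 1 lower, with a median of 1.43. The embryonic globin Hba-x was at -1.21 in WT and 1.71 in KO, Hbb-bh1 at -0.10 and 1.71, and Hbb-y at 5.04 and 6.22. Of the adult-type genes, Hbb-bt was at 7.78 and 8.87, Hbb-b2 at 4.13 and 5.86, and Hba-a2 at 9.19 and 9.83. Hba-a1 and Hba-a2, and likewise Hbb-b2, Hbb-bs and Hbb-bt, are near-identical copies whose probes may read each other's RNA. Hbq1b, a theta globin, was at -1.13 and -2.84. Alas2, the erythroid enzyme of heme synthesis, was at -0.33 and 1.01. Aqp1, a water channel of red cells, was at 2.42 and 0.40, and Car2, a carbonic anhydrase, at 4.02 and 2.94. Over 26 erythroid genes, a list that includes adult-type globin genes, 5 were at least 2-fold higher, 2 lower, and the median was -0.01. The 5 were Alas2 and the globin genes Hba-a1, Hbb-b2, Hbb-bs and Hbb-bt, and the 2 were Aqp1 and Car2. Klf1, the erythroid transcription factor, was at 2.11 and 2.04. The summed linear level of the 4 erythroid markers with a probe was 73.5 in WT and 190.7 in KO, nearly all of it Hba-a1, and the part of red cell RNA in these differences was not tested.

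Most genes associated with HSCs lay within 2-fold. Of 37 tested, 2 were at least 2-fold higher and 2 lower, against 4.14% and 3.5% of all genes, with a median of -0.04. Thy1 and Ltb were the higher genes, Ltb at 4.54 in WT and 5.58 in KO. The lower genes were Slamf1, which encodes the stem cell marker CD150 and was above background in WT only at -2.23, and Pdzk1ip1, at 1.80 and 0.66. Procr, for the endothelial protein C receptor that marks HSCs, was at 0.81 and -0.11, and Vwf at 0.23 and 0.99. No gene of the 13 tested in the fetal stem cell programme was 2-fold apart. Lin28b, an RNA-binding protein of fetal progenitors, was at 4.07 and 3.79, and Hmga2 at 4.53 and 3.79. The imprinted gene Dlk1 was at 4.72 and 4.36.

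Of 29 transcription factors of lineage priming 4 were at least 2-fold lower and none higher. They were Satb1, Dach1, Ebf1 and Myc, the last at 3.71 in WT and 2.39 in KO. Gfi1 was at 5.21 and 5.92, and Cebpe, a factor of granule genes, at 7.58 and 8.06. Genes of homing and adhesion gave 4 higher and 1 lower of 31. Itgb2 and Itgal, for the chains of the leukocyte integrin LFA-1, were at 2.18 and 3.37 and at 1.23 and 2.37. Itga6, a laminin receptor chain, was at 3.88 and 4.92.

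Glycolysis and hypoxia response genes were higher in KO. Of 37 tested genes 36 had a difference above 0, and 10 were at least 2-fold higher with none lower. The median was 0.68, and 33 of the 37 lay above 0 when the arrays were scaled on spike-in RNA. Bnip3, a mitophagy receptor induced by HIF, was at 3.94 in WT and 6.29 in KO, and its other 2 probes differed by 2.29 and 2.09. Slc16a3, the lactate exporter MCT4, was at 4.73 and 6.70. Slc2a3, a glucose transporter, was at 2.75 and 4.49, and Ddit4, an inhibitor of mTORC1, at 3.23 and 4.97. P4ha2, a collagen prolyl hydroxylase, was below background in WT and at -1.27 in KO. The glycolytic enzyme genes Gapdh and Ldha differed less, Gapdh at 9.98 and 10.24 and Ldha at 9.77 and 9.98. Hif1a itself was at 0.58 and 0.65, Car9 at 2.08 and 2.15, and Pfkm was the 1 gene below 0, at 3.00 and 2.57.

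Genes of the respiratory chain and of ribosome making lay the other way by small amounts. Of 36 oxidative phosphorylation subunit genes, 35 lay below 0 and none was 2-fold apart, with a median of -0.25. Ndufa5, of complex I, was at 7.57 in WT and 7.04 in KO, and Cox6a1, of complex IV, at 9.85 and 9.60. Of 34 ribosome biogenesis genes, 33 lay below 0 with a median of -0.33, and Polr1b, a subunit of RNA polymerase I, was 2-fold lower at 2.84 and 1.78. Counted against the median of all genes, 35 and 33 genes of these lists lay below it. Spike-in scaling also gave 35 and 33 below 0. It lowers every KO value by 0.12, so under it these counts could not fall. The difference was smaller than the SD between probes of a gene (0.23) for 13 of the 36 genes and for 6 of the 34.

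No gene of DNA replication (36 tested) or mitosis (33 tested) was 2-fold apart. Their medians were -0.10 and -0.19. Mcm6, of the replicative helicase, was at 8.55 in WT and 8.56 in KO, Rrm2 at 6.02 and 6.34, and Ccnb1, a mitotic cyclin, at 5.41 and 4.99. Of 6 tested inhibitors of cyclin-dependent kinases, 1 was at least 2-fold higher. Cdkn1a, which encodes p21, was at 0.36 and 2.18, Cdkn1b at 2.21 and 2.84, and Cdkn1c at 1.91 and 2.51. Of 22 p53 targets 3 were at least 2-fold higher (Perp, Cdkn1a and Ddit4), and the median was 0.06. Bax, a pro-apoptotic target, was at 5.31 and 4.93.

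Stress genes gave 3 higher and 4 lower of 31. Trib3, a pseudokinase induced by the integrated stress response, was at 0.12 in WT and 2.96 in KO, and Chac1, a glutathione-degrading enzyme of the same response, at -0.68 and 1.50. Gadd45a was at 1.06 and 2.33. Nr4a1, an immediate early receptor, was at 2.01 and 0.40, and the small heat shock gene Hspb1 at 3.79 and 2.40. No gene of 24 in cholesterol synthesis was 2-fold apart, and their median was 0.16.

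Interferon-stimulated genes gave 3 higher and none lower of 24, with a median of 0.35. The 3 were oligoadenylate synthetase genes, with Oasl1 at -0.49 in WT and 1.25 in KO, Oas2 at -0.26 and 1.11, and Oas1a at 3.47 and 4.56. Oasl2 lay the other way, at 0.34 and -0.62. With spike-in scaling 2 were higher and 2 lower. In the MHC class I list 1 gene of 16 was 2-fold apart, the nonclassical H2-T24, at -2.35 and -0.92.

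Imprinted genes, whose silencing TIF1b is known to protect in the early embryo, gave 3 higher and none lower of 28, with a median of 0.06. Rasgrf1, a Ras exchange factor expressed from the paternal allele, was below background in WT and at least 7.51-fold higher. Mest, a hydrolase-like protein, was at -2.94 and -0.86, with a second probe that was above background in KO only. The Rasgrf1 and Mest probes were below background on all 4 adult arrays. Mirg, of the Dlk1 to Dio3 region, was at -2.85 and -1.74. Of 306 tested genes whose symbol begins with Zfp, zinc finger proteins that include many partners of TIF1b, 5 were at least 2-fold higher and 4 lower, with a median of -0.05. Both counts are smaller shares than those over all genes, 4.14% higher and 3.5% lower. Zfp503 was at -1.11 and 0.41 and Zfp711 at 0.24 and -1.23.

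The adult bone marrow samples carried CreERT in place of Tie2-Cre. Differences across the 11539 genes above background in fetal liver and in the second adult pair correlated at r = 0.26, over genes, which are not independent. Of the 125 genes at least 4-fold higher in KO in that adult pair, 50 (40.0%) were at least 2-fold higher in fetal liver, against 3.43% of the 12316 genes tested in both, and 16 (12.8%) were at least 2-fold lower. The share of 40.0% was 26.4% with normexp background correction, and 68.8% of the 48 genes that were 4-fold higher in both adult pairs by the authors' table. With scanner values for the first adult pair it was 52.6% of 19 such genes. Of the 130 genes at least 4-fold lower, 27 (20.8%) were at least 2-fold lower in fetal liver, against 2.77%, and 9 (6.92%) were at least 2-fold higher. The 50 genes are 11.8% of the 423 that were higher in fetal liver, and the 27 are 7.92% of the 341 that were lower. For the first adult pair the values are the authors' deposited table, because the scanner values of its WT array did not match the table (1.40% of probes within 1%).

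A total of 19 genes were at least 4-fold higher and 12 at least 4-fold lower in fetal liver and in both adult pairs. Nccrp1 differed by 7.47 in fetal liver, 3.33 in the second adult pair and 5.08 in the first. Cyp2b10 differed by at least 3.98, 7.68 and 6.77, Ppp1r3g by at least 5.63, 5.46 and 5.49, and Epcam by at least 4.15, 4.74 and 5.84. Gstp1, a glutathione transferase, was higher by 2.30, 2.02 and 2.30, and Clpx, of the mitochondrial protease ClpXP, by 2.42, 2.42 and 2.96. On the lower side, with Trim28 and Apoe, Hk3 differed by -3.75, -4.29 and -3.80, Mdga1 by -3.33, -4.35 and -4.04, and Satb1 by -2.95, -3.53 and -4.35. Elane, Afp, Apoc1, Dach1, Ear2, Gria3 and Cacna1f make up the rest of the 12. Gstp1, Clpx and Cacna1f were named after their values were seen.

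**Figure D4:**
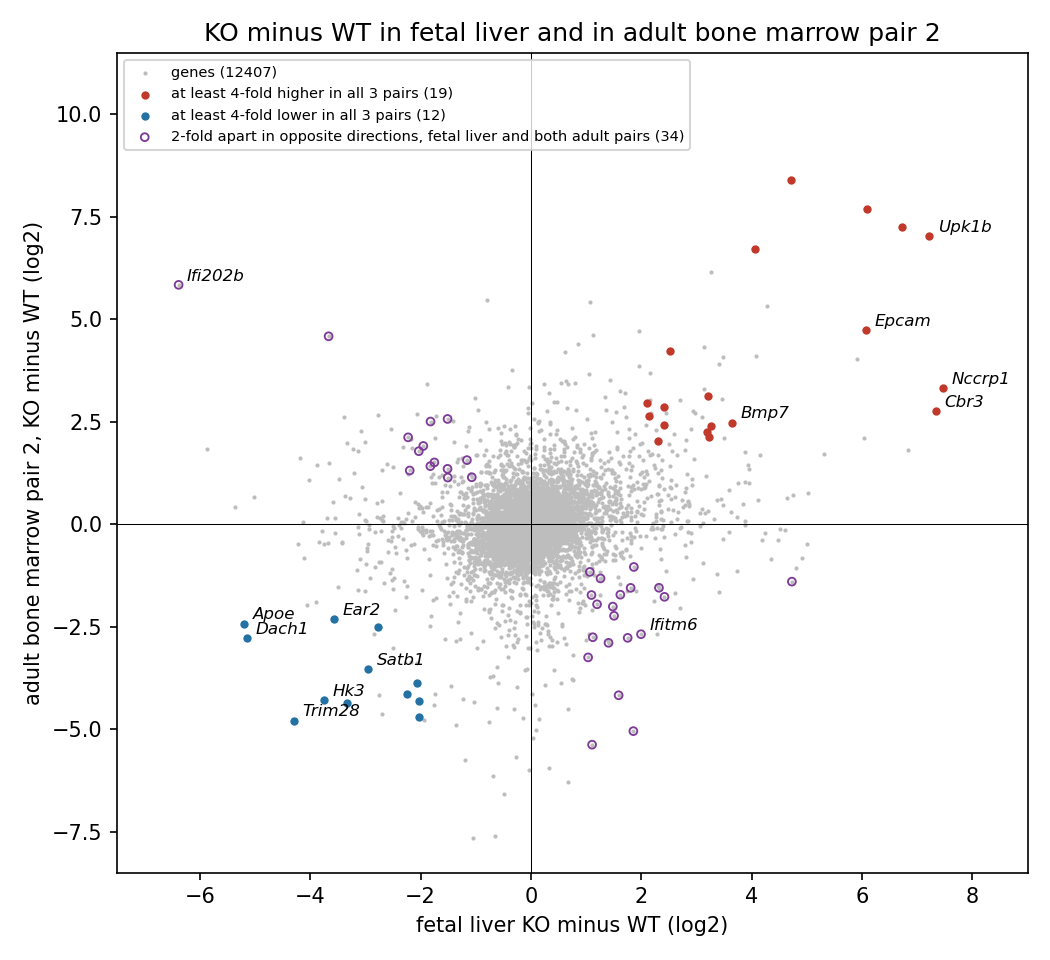
Difference KO minus WT (log2) in fetal liver (x axis) and in the second adult bone marrow pair (y axis) for 12407 genes above background on at least 1 adult array, with values below background as measured. Red and blue points are the 19 and 12 genes at least 4-fold higher or lower in all 3 pairs, and open circles the 34 genes 2-fold apart in opposite directions in fetal liver and both adult pairs.

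The tissues also differed. A total of 20 genes were at least 2-fold higher in fetal liver KO and at least 2-fold lower in both adult KO samples, and 14 were the reverse. This difference between the tissues was not tested. Glycolysis genes had a median of 0.68 in fetal liver, -0.24 in the second adult pair and -0.15 in the first. Of the 36 genes above 0 in fetal liver, 20 lay below 0 in both adult pairs, and 2 of these were among the 10 that were 2-fold higher. Neutrophil genes had a median of 0.32, -1.66 and -1.79, and megakaryocyte genes -0.25, 0.66 and 0.72. Mpo, level in fetal liver, differed by -5.21 and -2.18 in the adult pairs. The median of the globin genes was above 0 in all, at 1.43, 2.23 and 3.62. Of the embryonic globins, Hba-x differed by 0.07 and 0.19 in the adult pairs and was below background on all 4 adult arrays. Hbb-bh1 differed by 0.17 and 0.285, and Hbb-y, above background on 1 adult array, by 1.25 and 0.92. Hbq1b lay below 0 in all, at -1.71, -0.52 and -0.415.

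**Figure D5:**
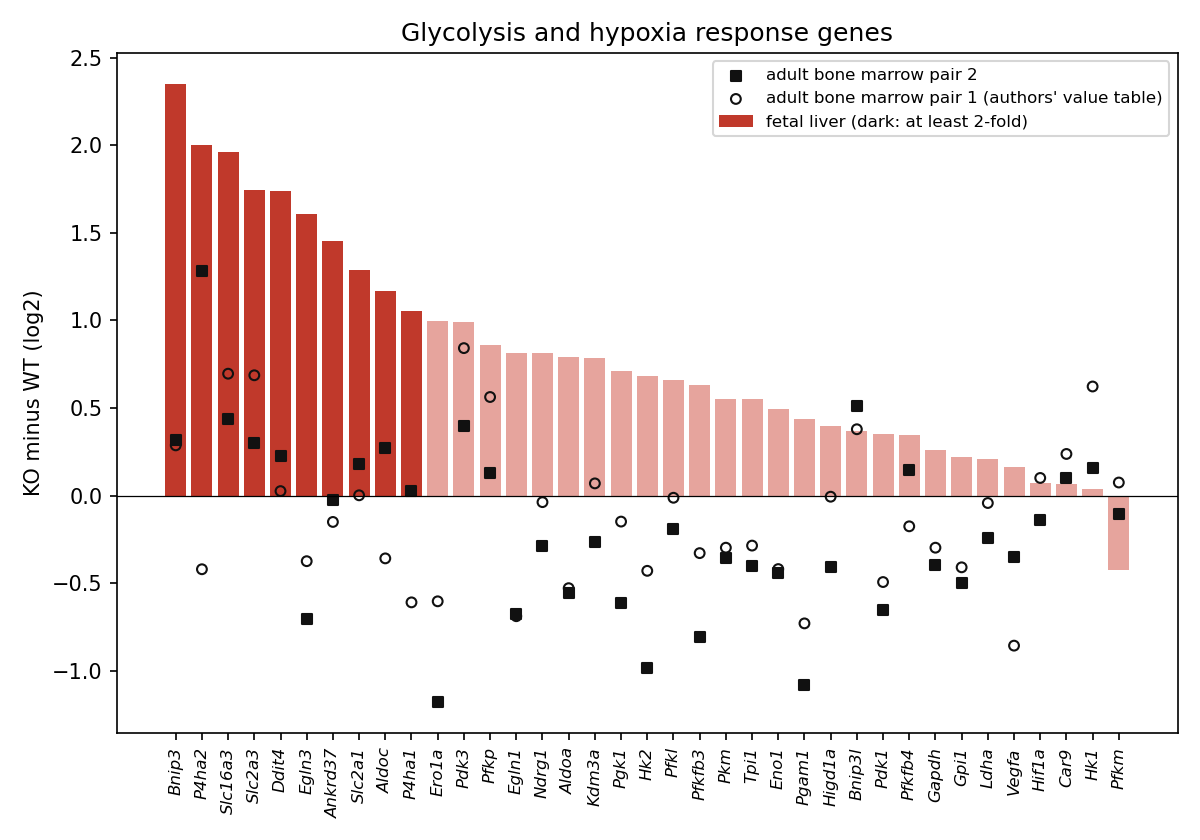
Difference KO minus WT (y axis, log2) of the 37 tested glycolysis and hypoxia response genes (x axis) in fetal liver (bars, dark where at least 2-fold), in the second adult pair (squares) and in the first adult pair (open circles, authors' value table). All bars but 1 lie above 0, and 23 squares and 24 open circles lie below 0.

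Among 9644 tested probes without a gene name, 135 (1.4%) were at least 4-fold higher and 165 (1.71%) at least 4-fold lower, against 1.05% and 0.833% of the named genes. These shares are not like for like. The first count probes, several of which can belong to 1 transcript, and the second count genes by their brightest probe. A transcript on chromosome 6 (build mm9 of the file headers, positions 129151512 to 129208737, reverse strand) had 9 probes, all of them lower in KO. The 4 of them above background on both arrays differed by -2.51, -2.34, -2.26 and -2.02, and by 0.37, 0.37, 0.47 and 0.53 in the second adult pair. The other 5 were above background in WT only, with bounds from -0.93 to -1.93. A transcript on the forward strand of the same chromosome, positions 40693617 to 40720167, had 5 probes, of which 3 were above background on both arrays and differed by -2.45, -2.39 and -1.97. The other 2 were above background in WT only, with bounds of -1.60 and -0.26. Where a pair of probes of 1 such transcript disagreed, as on chromosome 13 at positions 71021825 to 71023381 (bounds of -3.26 and 2.06), each was above background on 1 array.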

How the data were processed

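RNA of 6 sorted mouse KSL samples was measured on 1-colour Agilent arrays, and the 2 fetal liver arrays are described here. Per the file headers, the deposited spot intensity (gProcessedSignal) is background-subtracted and spatially detrended by Agilent Feature Extraction (version 10.7.1.1, per the submitters' processing notes). The authors' deposited value table holds a linear ratio per probe, proportional to the scanner signal on 5 of the 6 arrays. The constant is not stated, the direction is that of the signal, no centring of genes was seen, and the medians of the fetal liver columns were 0.0705 (WT) and 0.0709 (KO). No deposited values were on a log2 scale, and log2 was taken here.

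Log2 intensity was centred on each array's 75th percentile (218.7 in WT and 210.6 in KO), without control or outlier-flagged spots, and repeated spots were averaged. A gene stands by its brightest probe. RefSeq accessions named 26762 of 55681 probes, for 20284 genes. Well above background were 24383 probes in WT and 24585 in KO, and none was saturated. The number of arrays limits the precision. Both arrays lie on 1 slide and were scanned together. A difference at background is set against the higher of the probe's own level and the lowest level above background (-3.27 in WT and -3.30 in KO).

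The gene lists and named genes were chosen with earlier results of these data known. Genes are named if they are Trim28, Cbx1, Cbx3 or Cbx5, among the 12 largest measured differences or 6 largest bounds in each direction, neighbours that are all at least 4-fold apart in the same direction, or in a list the 4 extremes in each direction and the 2 highest levels. The alternatives were normexp (limma 3.58.1 in R 4.3.3, offset 50, on the median spot signal, since the files used here hold no mean signal), quantile, median and spike-in scaling, the authors' table, the mean of a gene's probes, and other filters. Calculations used Python 3.11.15 with pandas 2.3.3 and numpy 2.4.6, and figures matplotlib 3.10.9, and the gene table was tested on simulated data. No genome was used. The fold and list medians carry no test. The counts within each list stand beside 4.14% at least 2-fold higher and 3.5% lower over all genes. Some marker and list genes are not reported here.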

Additional observations from a re-analysis of the deposited data

Results flagged for a closer look

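Several results lay in opposite directions in fetal liver and in both adult bone marrow pairs. The difference between the tissues was not tested. Among the gene lists these were the megakaryocyte and platelet genes (median -0.25 in fetal liver, against 0.66 and 0.72 in the second and first adult pair), the neutrophil and granulocyte genes (0.32 against -1.66 and -1.79) and the glycolysis and hypoxia response genes (0.68 against -0.24 and -0.15).

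Of single genes past 1.5 on the log2 scale in all 3 pairs, named after their values were seen, 7 were higher in fetal liver KO and lower in adult KO. Ak4, a mitochondrial adenylate kinase, differed by 1.75 in fetal liver and by -2.77 and -1.73 in the second and first adult pair. Cd300lb, a myeloid receptor, differed by 1.86 in fetal liver and by at least -2.78 and at least -3.44 in the adult pairs, where its KO values were below background. Dnmt3l, a cofactor of DNA methylation, differed by 1.62, -1.72 and at least -1.96. Ifitm6 differed by 2.00, -2.68 and -2.88. Lrg1 differed by at least 1.51, -2.23 and -2.17. Mmp8, a collagenase of neutrophils, differed by at least 1.59 in fetal liver and by at least -2.17 and at least -2.67 in the adult pairs. Nlrc4, an inflammasome sensor, differed by 1.81, -1.55 and -1.75.

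The other 7 were lower in fetal liver KO and higher in adult KO. Ifi202b differed by at least -4.21 in fetal liver and by at least 3.69 and at least 2.27 in the adult pairs. Ank3 differed by at least -2.20, against at least 2.69 in each adult pair. Arsk differed by -1.51, 2.57 and 2.63, Gchfr, a regulator of GTP cyclohydrolase, by -2.03, 1.78 and 1.60, and Ica1l by -1.82, 2.51 and 3.08. Mc3r, a melanocortin receptor, differed by -2.23, 2.12 and 1.62, and the olfactory receptor gene Olfr1466 by -1.75, 1.51 and 1.52.

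Probes without a gene name carried signal outside the named genes. A transcript on chromosome 2 (build mm9, positions 27394711 to 27402186, reverse strand) had 5 probes, all at least 2-fold higher in fetal liver KO. The probe with the largest difference was at -2.78 in WT and 3.96 in KO, a difference of 6.74, and differed by at least 8.68 in the second adult pair and at least 7.27 in the first. A transcript on chromosome 8 (positions 129336539 to 129400338, reverse strand) had 3 probes that were higher, by up to 3.91, and that probe differed by 1.12 and 1.75 in the adult pairs.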

How the results depend on the processing

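No paired analysis was possible because fetal liver has 1 array per genotype, and for the same reason no array could be left out. A difference counted as kept when it moved by less than 0.23, the SD between probes of a gene, and a count or share when it stayed within 1.5 times. Of 3046 recomputed differences of single genes, pooled over the settings, 141 moved and 1 turned its sign from a difference of at least 0.23. A sign change through a move of less than 0.23 counted as kept, so such changes near 0 are not in this count. With normexp 127 moved and 218 were kept. With the mean of a gene's probes 14 moved, 1 turned its sign and 330 were kept. None moved under the other settings. Quantile, median and spike-in scaling and the authors' table moved none of the results beyond these limits. Of these, only quantile scaling could have moved a difference that far. Median and spike-in scaling shift all genes alike by less than 0.23 (0.12 for spike-in), and the authors' table is proportional to the same signal.

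With normexp correction 236 genes were at least 2-fold higher and 182 lower. The list medians became -0.62 for B lymphoid, -0.48 for hepatocyte, 0.21 for stromal, 0.29 for epithelial and 0.16 for metabolic genes. The share of adult genes also higher in fetal liver became 26.4%. For genes above background on both arrays the counts were 328 and 249, and the medians were -0.19 (B lymphoid), -1.26 (hepatocyte), 0.13 (stromal), 0.36 (epithelial) and 0.14 (metabolic). With no filter on dim probes the medians were 1.18 (globin), -1.01 (B lymphoid), -0.71 (hepatocyte), 0.067 (epithelial), -0.067 (neural), 0.31 (kinase inhibitors) and, turned in sign, -0.058 (metabolic). Both of these filters change which genes are counted; for normexp the cause was not tested.

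Without genes bright on 1 fetal liver array alone, an alternative added after seeing the data like the spike-in scaling, the medians were -1.26 for hepatocyte and 0.27 for muscle genes. With values set at their bound they were -1.18 for B lymphoid and -1.15 for hepatocyte genes. Among adult genes 4-fold higher in both adult pairs by the authors' table, 33 of 48 (68.8%) were also higher in fetal liver. With scanner values for the first adult pair these were 10 of 19 (52.6%). Of adult genes 4-fold lower in both pairs, 23 of 90 (25.6%) by the table and 9 of 58 (15.5%) by scanner values were also lower in fetal liver. Polk, a p53 target, turned from -0.53 to 0.42 with the mean of its probes, each of which was above background on 1 array only. Low signal limits genes near background, where only bounds exist.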
